A study of Mus musculus with 2 samples.

Results

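The endothelial junction and barrier genes are 10 genes whose proteins hold neighbouring endothelial cells (ECs) together or regulate those contacts, namely Cdh5, Ptprb, Ptprm, Pecam1, Cldn5, Ocln, Tjp1, Esam, Jam2 and Jam3. They were chosen by symbol from the 32589 genes of the mouse heart single-nucleus RNA-seq (snRNA-seq) data, and all 10 were found. The study asked how an antibody against programmed cell death-1 (PD-1), an immune checkpoint receptor of T cells, alters the cells of the heart. Hearts came from male C57BL/6 mice that were 8 weeks old at the start. The PD-1 inhibitor group received anti-mouse PD-1 antibody intraperitoneally at 5 mg/kg on days 1 and 14 of a 28-day cycle, and the control group received PBS at the same times. Each condition was measured as 1 library of nuclei, and how many hearts went into a library is not given in the sources used here. With 1 library per condition there was no replicate and no test, and every interval below is a 95% interval for counting error only.

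Endothelium keeps plasma and blood cells inside the vessel by means of adherens and tight junctions between adjacent cells. In adherens junctions VE-cadherin binds VE-cadherin of the next cell and is anchored to actin through catenins, and its phosphorylation loosens the contact. Tight junctions are built from claudins, occludin and junctional adhesion molecules, which are tied to the cytoskeleton by zonula occludens proteins. The tightness differs along the vascular tree, with capillaries of working muscle, lymphatic vessels and the endocardium, the lining of the heart chambers, each forming their own kind of barrier.

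The control library held 13177525 unique molecular identifiers (UMIs, each marking 1 captured transcript) in 10197 barcodes and the PD-1 inhibitor library held 10875248 in 7967. After removal of damaged nuclei and doublets, 9522 and 7644 nuclei remained, with a median of 1012 and 1055 UMIs. The libraries shared 48 barcode sequences. ECs made up 2813 and 2513 of these nuclei, and all 16 EC markers, none of them a junction member, were detected in them. ECs fell into endocardial (1363 and 1447 nuclei), capillary (989 and 695), arterial (130 and 126), lymphatic (234 and 158) and valve-like (97 and 87) clusters, and each name stands for a cluster like that type. The members were left out of the genes used for clustering. Levels are UMIs of a gene per 1000000 UMIs of the same nuclei and library (CPM), and each pair of values gives the control library first and the PD-1 inhibitor library second. Markers of other cell types were also present in ECs. Their summed level was 3079 and 4193 CPM for 13 fibroblast markers and 4188 and 4266 CPM for 12 cardiomyocyte markers, against 38376 and 48032 CPM and 69307 and 70834 CPM in those cell types themselves. The other 7 marker lists summed to between 26.6 and 1130 CPM in ECs. Some sums rested largely on a single marker. The highest fibroblast marker alone had 1281 and 2134 CPM. For B cell markers, which summed to 1130 and 972 CPM, the highest alone had 1084 and 952 CPM. The part of these transcripts in the members' levels was not tested.

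Of the 10 members, 9 had a level in ECs more than 2 times that in all other named nuclei in both libraries, which 7.24% of all 14343 genes with at least 50 UMIs also did. The exception was Jam3. The median member had 74.4% and 77.7% of its UMIs in ECs, compared with 23.9% and 27.6% for the median gene. In ECs, 95.6% and 94.7% of nuclei had a UMI of at least 1 member. Nuclei with macrophage and dendritic cell markers (MPs), which should lack most of these genes, gave 30.3% and 29.4% at a similar depth, with medians of 902 and 966 UMIs in MPs and 898 and 951 in ECs. With every nucleus thinned to 500 UMIs, the shares were 88.8% and 86.5% in ECs and 20.9% and 17.0% in MPs. Summed over all members, arterial ECs had the highest level of the 5 EC clusters (11192 and 10343 CPM), and lymphatic ECs the lowest (3801 and 3849 CPM).

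Cdh5 encodes VE-cadherin, the defining adhesion molecule of endothelial adherens junctions (GRCm38 chromosome 8, bases 104101625 to 104144511, plus strand). Its level in ECs was 576 and 588 CPM, and ECs held 84.6% and 85.9% of its UMIs. Capillary ECs had the most Cdh5 (841 and 934 CPM), apart from every other EC cluster by counting interval in both libraries. Arterial (509 and 557 CPM), endocardial (469 and 483 CPM) and lymphatic ECs (437 and 487 CPM) followed, with intervals that overlapped. Valve-like ECs had 258 and 429 CPM, from 36 and 79 UMIs, the lowest of the 5 clusters, although in the PD-1 inhibitor library the interval overlapped those of arterial, endocardial and lymphatic ECs. Outside ECs, Cdh5 stood at 22.2 to 64.0 CPM in fibroblasts, cardiomyocytes, MPs, mural and mesothelial cells, so none of these types reached the level of any EC cluster.

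Ptprb encodes VE-PTP, an endothelial receptor phosphatase that binds VE-cadherin and the angiopoietin receptor Tie2 and removes phosphate from both (chromosome 10, bases 116275523 to 116389535, plus strand). It was among the most abundant members by UMIs, at 1651 and 1443 CPM in ECs, and 88.2% and 89.0% of its UMIs lay in ECs. Arterial ECs held 3455 and 3434 CPM, which was 1.16 and 1.41 higher on the log2 scale than all other ECs together. Valve-like ECs came next with 3114 and 2719 CPM. Capillary ECs had 1920.5 and 1906 CPM, endocardial ECs 1280.0 and 944 CPM, and lymphatic ECs 813 and 853 CPM. The intervals of arterial and valve-like ECs overlapped in the control library only.

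Ptprm encodes a receptor phosphatase whose extracellular part binds the same protein on the adjacent cell and whose cytoplasmic part associates with cadherins (chromosome 17, bases 66666947 to 67354457, minus strand). It is shown with its promoter because it was the only member past the fold in ECs between the libraries. Its level in ECs was 1066 and 713 CPM. Capillary (1889.8 and 1262 CPM) and arterial ECs (1863 and 1195 CPM) had the most, with overlapping intervals. Valve-like (616 and 559 CPM), lymphatic (676 and 512 CPM) and endocardial ECs (555 and 474 CPM) had less. Ptprm was also less restricted to ECs than its relative Ptprb, with 52.7% and 54.7% of its UMIs in ECs, 756 and 589 CPM in adipocytes and 470.4 and 354 CPM in cardiomyocytes. The adipocyte level exceeded that of endocardial ECs in both libraries, although the intervals overlapped in the PD-1 inhibitor library, where adipocytes numbered only 16 nuclei. The 250 bases before its RefSeq start (GRCm38.p6, chr17:67354460-67354709, minus strand) were 81.2% G and C.
Ptprm promoter: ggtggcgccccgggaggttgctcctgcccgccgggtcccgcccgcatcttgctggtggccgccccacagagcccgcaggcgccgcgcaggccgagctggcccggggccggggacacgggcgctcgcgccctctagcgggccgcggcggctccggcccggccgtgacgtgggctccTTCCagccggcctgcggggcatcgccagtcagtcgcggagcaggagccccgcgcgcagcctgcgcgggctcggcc

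Capitals in this and the following promoters mark the core of ETS factor motifs, GGAA or its complement TTCC, and the E-box CANNTG, which reads the same on both strands. The Ptprm window held 1 ETS core and 0 E-boxes. Of 32851 RefSeq promoters of the same length, 93.4% held an ETS core and 66.2% an E-box. In the promoters printed here, no base was shared between the motifs. RefSeq promoters were matched for 4 of the 10 members.

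Pecam1 encodes CD31, an immunoglobulin-family protein that binds itself across cell borders and is used by leukocytes crossing the endothelium (chromosome 11, bases 106654217 to 106750628, minus strand). ECs had 1559 and 1684 CPM, and arterial ECs had the most, with 3319 and 3190.5 CPM, a log2 difference from other ECs of 1.19 and 1.02. Valve-like (2291 and 2546 CPM) and endocardial ECs (1717 and 1779.9 CPM) exceeded capillary ECs (1086 and 1047 CPM), the reverse of the order seen for Cdh5. Lymphatic ECs had the least, 854 and 731 CPM. B cells had 739 and 680.4 CPM, from 155 and 54 UMIs, close to lymphatic ECs and with overlapping intervals. T cells had 197 and 177 CPM, and fibroblasts, cardiomyocytes, MPs and mural cells 80.4 to 95.8 CPM.

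Cldn5 encodes claudin-5, the main claudin of endothelial tight junctions (chromosome 16, bases 18776847 to 18778262, plus strand). Among ECs its level was 146 and 129 CPM, and the clusters differed more in Cldn5 than in any adherens junction member. Lymphatic ECs had 642 and 828 CPM and arterial ECs 627 and 592 CPM, which was 2.72 and 3.44 (lymphatic) and 2.43 and 2.64 (arterial) above other ECs on the log2 scale. Capillary ECs had 126 and 102 CPM. Endocardial ECs had 26.0 and 10.96 CPM, from 38 and 18 UMIs, log2 differences from other ECs of -3.31 and -4.66. Valve-like ECs had 2 UMIs (14.3 CPM) and 0 UMIs, the latter at least 8.49-fold lower than other ECs with 3 counts as the floor. A UMI of Cldn5 was found in 1.61% and 1.11% of endocardial nuclei (median depths of 924 and 971 UMIs), compared with 0.558% and 0.793% of MPs. Lymphatic ECs, only 8.84% and 7.08% of all EC UMIs, held 38.9% and 45.3% of the Cldn5 UMIs of ECs.

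Ocln encodes occludin, a membrane protein with 4 transmembrane segments that lies in the tight junction beside the claudins (chromosome 13, bases 100496507 to 100552718, minus strand). It was rare, with 84 and 92 UMIs in ECs (28.2 and 31.7 CPM), and 83.2% and 95.8% of all its UMIs lay in ECs. In endocardial and lymphatic ECs its pattern ran opposite to that of Cldn5. Endocardial ECs had 44.4 and 51.7 CPM and held 77.4% and 92.4% of its EC UMIs, a log2 difference from other ECs of 1.80 and 3.12. Lymphatic ECs, where Cldn5 was abundant, had 0 Ocln UMIs in both libraries, at least 2.71-fold and at least 2.34-fold lower than other ECs. Capillary ECs had 5 UMIs (5.29 CPM) and 0 UMIs, the latter at least 9.13-fold lower than other ECs. Arterial ECs had 59.2 and 19.9 CPM from 10 and 4 UMIs, so their place beside endocardial ECs was not resolved at this depth. The endocardial excess did not reach a log2 difference of 1 in both libraries when clusters were cut at a finer resolution or when the members took part in the clustering. The promoters of Cldn5 (GRCm38.p6, chr16:18776597-18776846, plus strand) and Ocln (chr13:100552719-100552968, minus strand) are shown because these tight junction genes differed in opposite directions in endocardial ECs.
Cldn5 promoter: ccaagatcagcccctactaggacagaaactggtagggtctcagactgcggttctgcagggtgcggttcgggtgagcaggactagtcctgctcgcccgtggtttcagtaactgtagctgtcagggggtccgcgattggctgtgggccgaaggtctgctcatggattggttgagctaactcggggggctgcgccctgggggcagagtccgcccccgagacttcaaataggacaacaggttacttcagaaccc
Ocln promoter: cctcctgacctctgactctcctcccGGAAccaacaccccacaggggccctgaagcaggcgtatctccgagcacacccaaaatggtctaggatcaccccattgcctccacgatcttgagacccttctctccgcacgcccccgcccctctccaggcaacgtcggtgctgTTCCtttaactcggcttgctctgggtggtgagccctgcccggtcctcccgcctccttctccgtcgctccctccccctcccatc

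The Cldn5 window held 0 ETS cores and 0 E-boxes at 59.6% G and C. The Ocln window held 2 ETS cores and 0 E-boxes at 64.0% G and C. A second RefSeq start of Ocln lies downstream, and its window, not printed here, held 1 ETS core and 2 E-boxes.

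Tjp1 encodes zonula occludens-1 (ZO-1), the scaffold that links tight junction proteins to actin in epithelia and endothelia alike (chromosome 7, bases 65296165 to 65527781, minus strand). It was detected in every EC cluster at levels of the same order. Capillary ECs had 441 and 477 CPM and arterial ECs 314 and 373 CPM, with overlapping intervals in both libraries. Endocardial ECs had 265 and 266 CPM, lymphatic ECs 269.6 and 346 CPM and valve-like ECs 272 and 195 CPM. No cluster lay past a log2 difference of 1 from other ECs. ECs held 49.1% and 50.1% of the Tjp1 UMIs. Mesothelial cells, an epithelium, had 202 and 233 CPM, and mural cells, fibroblasts and cardiomyocytes had 119 to 149 CPM.

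Esam, Jam2 and Jam3 belong to the immunoglobulin-type junctional adhesion molecules. Esam, the endothelial cell-selective adhesion molecule (chromosome 9, bases 37528078 to 37538319, plus strand), had 279 and 288 CPM in ECs. It was present in capillary (357 and 447 CPM), arterial (449.6 and 329 CPM), valve-like (429.6 and 380.0 CPM) and endocardial ECs (236 and 239.8 CPM). Lymphatic ECs had only 45.6 and 39.0 CPM from 12 and 8 UMIs, with log2 differences from other ECs of -2.67 and -2.89. Despite its name, Esam reached 226 and 322 CPM in mural cells and 244 and 254 CPM in mesothelial cells, levels near those of endocardial ECs, apart from mural cells of the PD-1 inhibitor library, whose interval lay above.

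Jam2, encoding JAM-B (chromosome 16, bases 84774123 to 84825928, plus strand), had 402 and 419 CPM in ECs. Capillary ECs had 668 and 749 CPM, and arterial ECs, with overlapping intervals in both libraries, 592 and 632 CPM. The capillary level was 1.26 and 1.22 above other ECs on the log2 scale. Lymphatic ECs again stood apart with 41.8 and 34.1 CPM, from 11 and 7 UMIs (log2 differences of -3.32 and -3.62). Cardiomyocytes (113 and 109 CPM) and fibroblasts (80.9 and 95.8 CPM) had higher Jam2 values than lymphatic ECs, with overlapping intervals for fibroblasts in the control library, and MPs had 35.9 and 36.8 CPM.

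Jam3, encoding JAM-C, a binding partner of JAM-B (chromosome 9, bases 27097384 to 27155421, minus strand), was the least restricted member. ECs had 45.3 and 40.0 CPM and only 32.7% and 28.6% of its UMIs. Within ECs it was concentrated in capillary nuclei, which had 104 and 122 CPM, a log2 difference of 2.50 and 2.95 from other ECs, and 72.6% and 69.8% of its EC UMIs. Endocardial ECs had 19.1 and 14.6 CPM, and each of the other clusters had between 1 and 6 UMIs. Mural cells had 126 and 115 CPM, with intervals overlapping those of capillary ECs, and fibroblasts had 41.1 and 55.1 CPM.

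**Figure D1:**
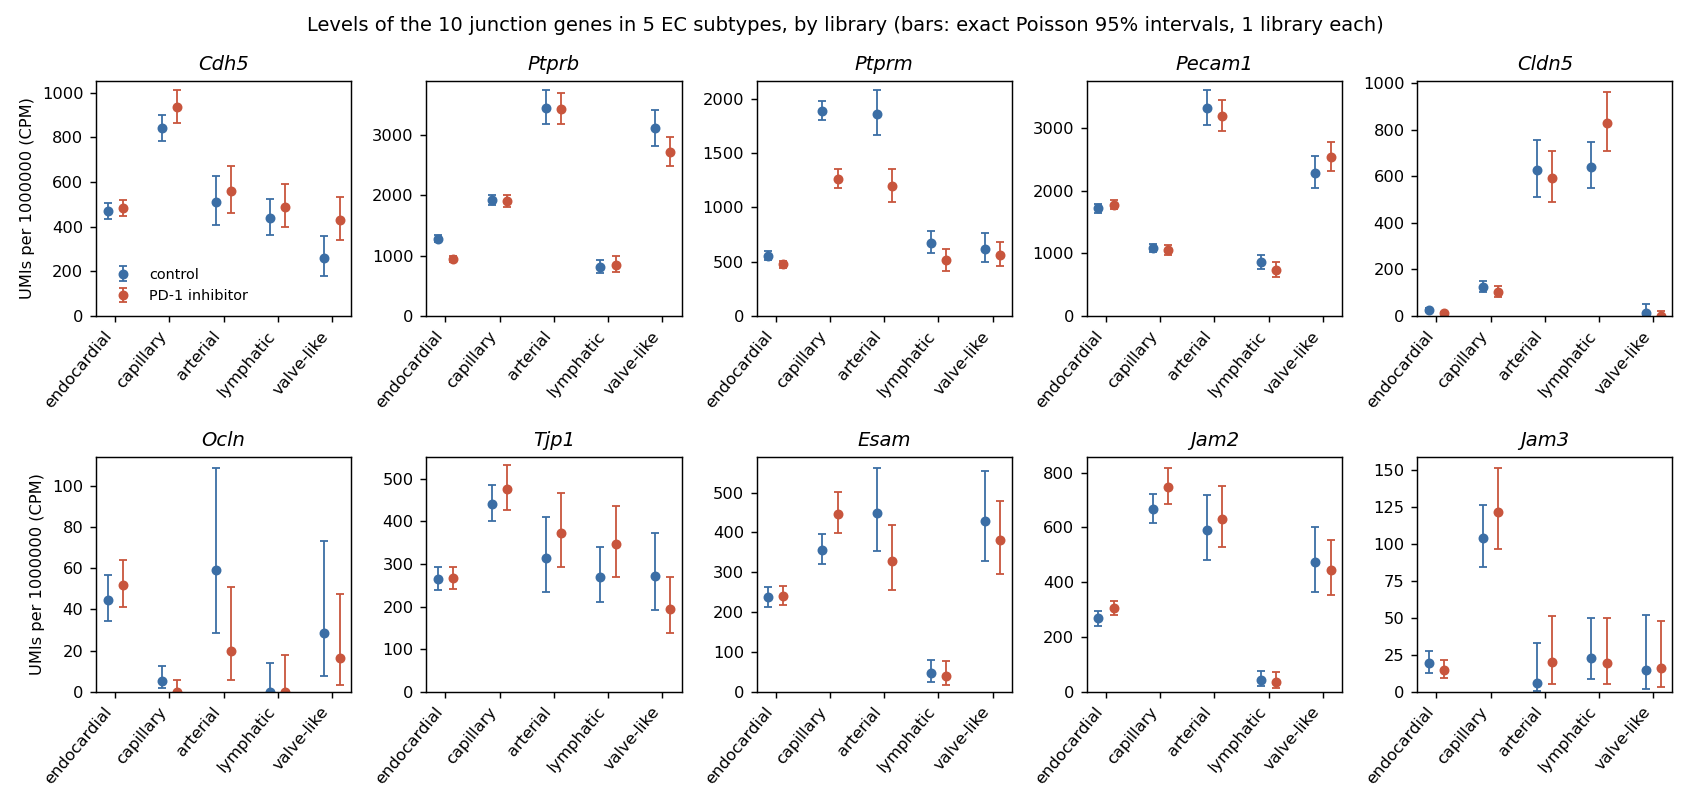
Level of each member in CPM (vertical axes, from 0) in the 5 EC clusters of the control and PD-1 inhibitor library, with exact 95% Poisson intervals as bars. Cldn5 is highest in lymphatic and arterial ECs (592 to 828 CPM), Ocln and Pecam1 are higher in endocardial than in capillary ECs, and Jam2 and Jam3 are higher in capillary than in endocardial ECs.

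The EC clusters thus carried different sets of members, counted as a log2 difference past 1 from other ECs in both libraries. Endocardial ECs had 1 member higher, Ocln (3.94% of 10702 genes in ECs passed the same rule), and 3 lower, Ptprm, Cldn5 and Jam3 (5.93% of genes). Capillary ECs had 3 higher, Ptprm, Jam2 and Jam3 (5.02%), and 1 lower, Ocln (7.87%). Arterial ECs had 3 higher, Ptprb, Pecam1 and Cldn5 (2.92%), and 0 lower (5.25%). Lymphatic ECs had 1 higher, Cldn5 (4.86%), and 3 lower, Ocln, Esam and Jam2 (7.34%). Valve-like ECs had 0 higher (4.35%), with Ptprb at 0.98 and 1.00, and 2 lower, Cldn5 and Jam3 (7.66%), which rested on 0 to 3 UMIs of each gene in each library. Since the clusters were made from the same nuclei, these differences are descriptions. The arterial set was 1 member instead of 3 with at most 5% mitochondrial UMIs or with finer clusters. At the finer resolution the arterial and endocardial names did not cover the same nuclei. The valve-like counts varied between 0 and 2 over the alternatives tried. The valve-like name also covered different nuclei, 97 and 87 in the main setting and 316 and 239 with at least 500 genes per nucleus. With the members among the variable genes it covered 416 and 279 nuclei, and the endocardial name 1077 and 1307 instead of 1363 and 1447. Arterial nuclei had a UMI of 4 or more members in 69.2% and 73.0% of cases, compared with 33.2% and 32.2% of all ECs and 0.637% and 0.453% of MPs, at a median depth of 1028 and 1248.5 UMIs.

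**Figure D2:**
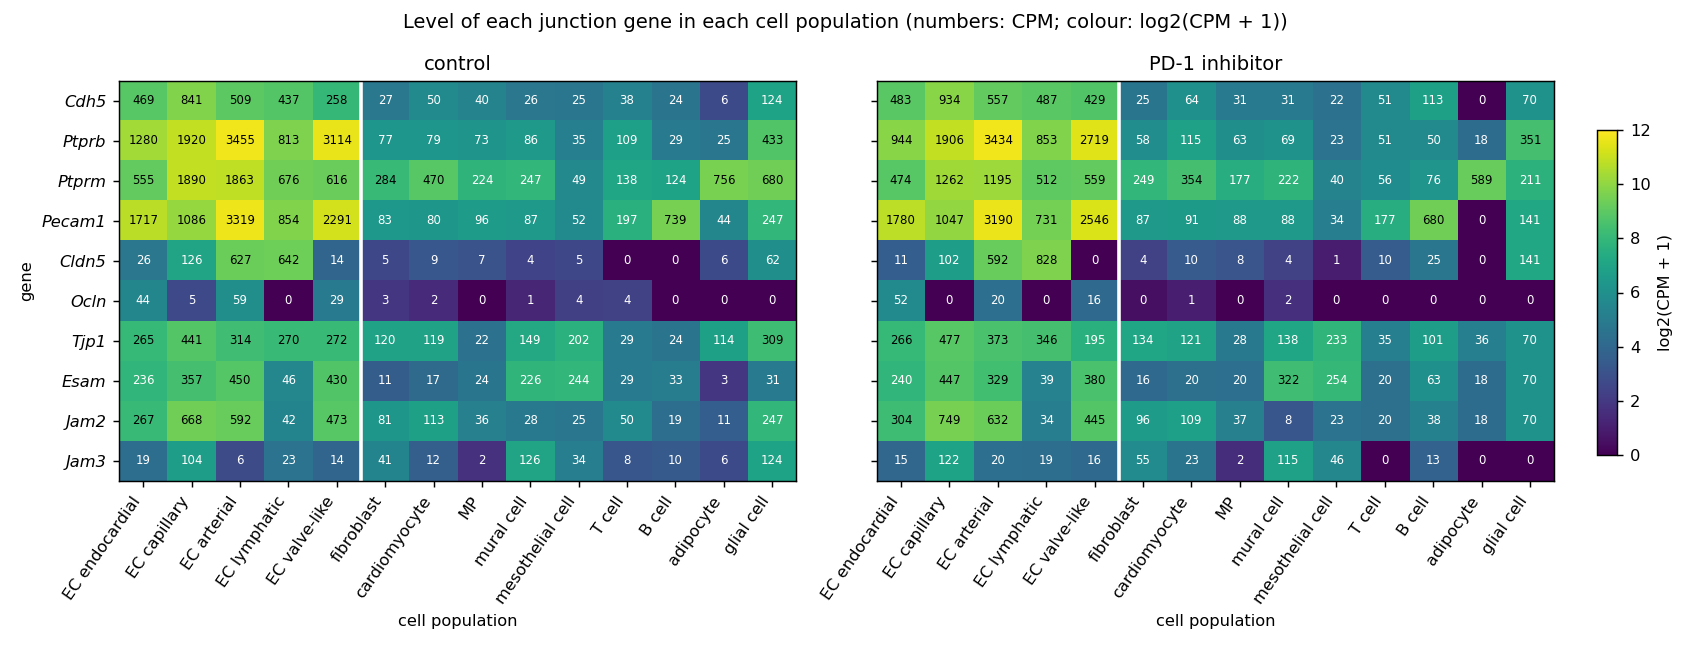
Level of each member (rows) in the 14 cell populations (columns) of the control and PD-1 inhibitor library, with CPM written in each cell and colour giving log2(CPM + 1), brighter for higher levels. For Cdh5, Ptprb and Pecam1 the 5 EC columns at the left are brighter than all other columns. Pecam1 is also seen in B cells (739 and 680.4 CPM), Ptprm in adipocytes and cardiomyocytes and Jam3 in mural cells.

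Long genes may offer more sequence to capture in nuclear RNA, so the levels of the members were also divided by length in kilobases (kb). Whether UMIs scale with span or exon length was not tested, so these orders are not relative transcript abundance. Per kb of gene span, Cldn5, which has a single exon of 1.416 kb, had the highest level in ECs (102.9 and 91.4 CPM per kb), followed by Esam (27.2 and 28.1) and Pecam1 (16.2 and 17.5). Ptprb (14.5 and 12.7) and Cdh5 (13.4 and 13.7) came next, in that order in the control library and in the reverse order in the PD-1 inhibitor library. Jam2 had 7.77 and 8.09 CPM per kb of span, and Ptprm, Tjp1, Jam3 and Ocln had between 0.502 and 1.55. Per kb of annotated exon the order was led by Pecam1 (250 and 270 CPM per kb), with Cdh5 at 137 and 140, Ptprb at 124 and 108, Ptprm at 121 and 80.8, Cldn5 at 103 and 91.4 and Esam at 97.3 and 100.5. Jam2 (66.6 and 69.3), Tjp1 (41.5 and 41.4), Jam3 (14.2 and 12.5) and Ocln (6.68 and 7.52) were lower on that scale. Ocln was the least abundant member in ECs on both scales.

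Between the libraries, most members stood at nearly the same level in ECs. The log2 ratio of the PD-1 inhibitor over the control library had a median of 0.01 over the 10 members, all of which had at least 50 UMIs, and 0.01 over all 10702 genes tested. A log2 ratio above 0.5 was found for 0 members (8.61% of genes) and below -0.5 for 1 member, Ptprm (6.62% of genes). The log2 ratio was 0.03 (95% interval -0.07 to 0.13) for Cdh5, -0.01 (-0.14 to 0.12) for Tjp1, 0.05 (-0.09 to 0.19) for Esam and 0.06 (-0.06 to 0.17) for Jam2. Pecam1 was slightly higher, by 0.11 (0.05 to 0.17), and Ptprb slightly lower, with -0.19 (-0.25 to -0.13). The intervals of Cldn5 (-0.17, from -0.37 to 0.03), Ocln (0.17, from -0.27 to 0.62) and Jam3 (-0.18, from -0.55 to 0.19) contained 0 and were wide, and the ratio of Ocln was 0.93 after thinning each nucleus to 500 UMIs. These intervals hold no variation between hearts.

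The mix of EC clusters also differed between the libraries. Endocardial ECs made up 49.1% and 56.7% of EC UMIs, and capillary ECs 31.7% and 22.9%. With the EC clusters weighted alike in the control and treated library, the log2 ratio of Ptprm was -0.45, no longer past 0.5, that of Pecam1 was 0.02 and that of Cldn5 was -0.03. The ratios of Ocln (-0.03) and Jam3 (0.11), whose intervals contained 0, turned in sign under that weighting.

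**Figure D3:**
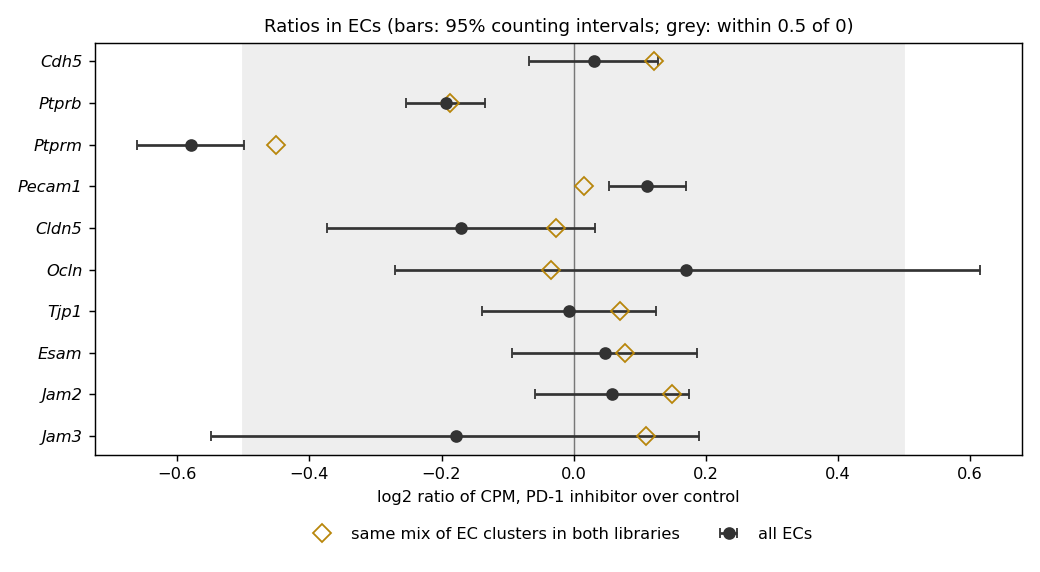
Log2 ratio of the PD-1 inhibitor over the control library in ECs for each member, with exact 95% intervals for counting error as bars, the grey band marking -0.5 to 0.5 and diamonds giving the ratio with EC clusters weighted alike. Ptprm at -0.58 is the only member outside the band and enters it, at -0.45, with that weighting.

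Ptprm went from 1066 CPM in control ECs to 713 CPM in treated ECs, a log2 ratio of -0.58 (-0.66 to -0.50). Within capillary ECs the ratio was also -0.58 (-0.70 to -0.46), and within arterial ECs -0.64 (-0.89 to -0.39). It was smaller in lymphatic (-0.40, from -0.76 to -0.05) and endocardial ECs (-0.23, from -0.37 to -0.08), and in valve-like ECs the interval contained 0 (-0.14, from -0.57 to 0.29). The lower level was not particular to ECs. The ratio of Ptprm was below 0 in all 14 populations with a name, with an interval wholly below 0 in 8 of them, among them cardiomyocytes (-0.41, from -0.55 to -0.27) and MPs (-0.34, from -0.62 to -0.07).

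Gene length moved with the ratio across all genes in ECs. With genes ordered by span into 5 bins of 2139 or 2140 genes, the median log2 ratio was 0.22 in the bin of shortest genes and 0.09, 0.02, -0.06 and -0.17 in the following bins. Ptprm, with a span of 687.5 kb, lies in the bin of longest genes, and the part of gene length in its ratio was not tested. Its ratio of -0.58 lay below the median of that bin. Tjp1, with 231.6 kb, lies in the same bin and had a ratio of -0.01, and Ptprb and Pecam1, also in it, had -0.19 and 0.11.

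**Figure D4:**
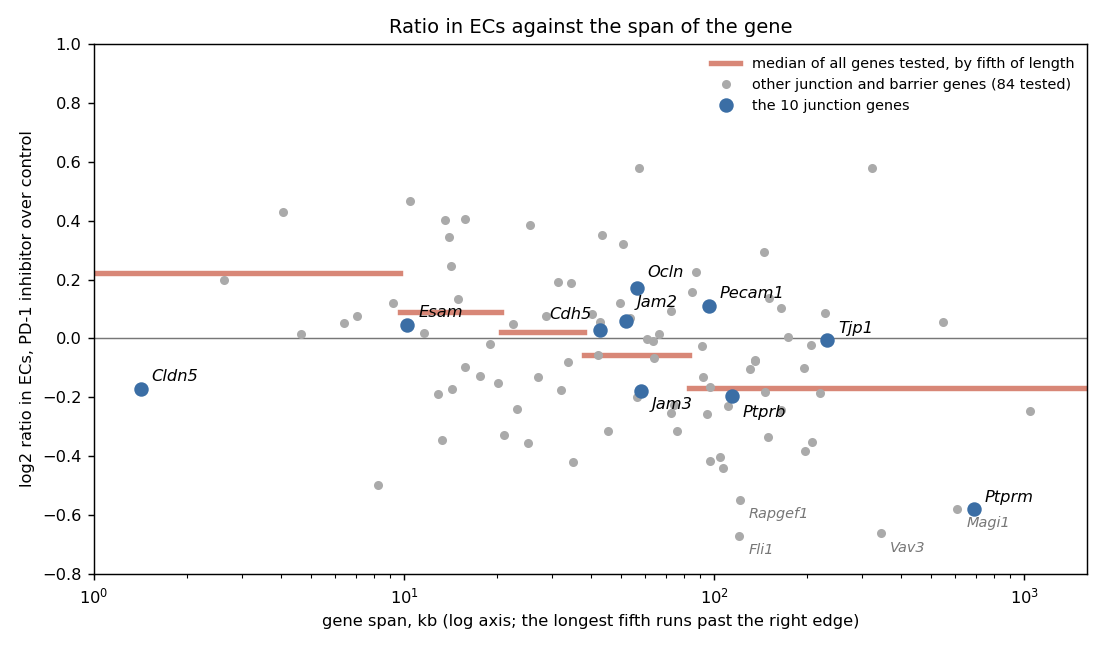
Log2 ratio in ECs (vertical axis) against gene span in kb (horizontal axis, log scale) for the 10 members and the 84 tested genes of the junction lists (grey), with the median ratio of all genes in each of 5 bins of span as lines. The medians run from 0.22 in the bin of shortest genes to -0.17 in that of longest genes, and Ptprm, with the longest span of the members, lies at -0.58.

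Among the EC clusters, Ptprb had its lowest ratio in the endocardium. Endocardial ECs had 1280.0 and 944 CPM, from 1873 and 1550 UMIs, which gives a log2 ratio of -0.44 (-0.54 to -0.34). Capillary (-0.01, from -0.12 to 0.09), arterial (-0.01, from -0.17 to 0.15) and lymphatic ECs (0.07, from -0.23 to 0.36) had ratios near 0, and valve-like ECs had -0.20 (-0.38 to -0.01). The difference between clusters was not tested. Cldn5 was lower in endocardial ECs (26.0 and 10.96 CPM, log2 ratio -1.22, from -2.14 to -0.40) and higher in lymphatic ECs (642 and 828 CPM, 0.37, from 0.05 to 0.68). The endocardial level rested on 38 and 18 UMIs. In the PD-1 inhibitor library its interval overlapped those of Cldn5 in cardiomyocytes (9.92 CPM) and MPs (7.95 CPM). In valve-like ECs, Cdh5 had 258 and 429 CPM, a log2 ratio of 0.72 (0.15 to 1.35). In capillary ECs, Esam had 357 and 447 CPM, a ratio of 0.32 (0.09 to 0.55). Among members with at least 50 UMIs in the cluster, endocardial ECs thus had 0 above 0.5 (10.3% of genes) and 1 below -0.5, Cldn5 (7.09%). Capillary ECs had 0 higher (13.2%) and 1 lower, Ptprm (11%), and arterial ECs 0 higher (14.0%) and 1 lower, again Ptprm (15.7%). Lymphatic ECs had 0 higher (14.3%) and 0 lower (15.6%), and valve-like ECs 1 higher, Cdh5 (14.0%), and 0 lower (11.7%). The members that entered these counts numbered 10 in endocardial, 9 in capillary, 8 in arterial, 6 in lymphatic and 7 in valve-like ECs.

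In 4 of the other cell types, members with at least 50 UMIs passed the same fold. Such members numbered 8 in cardiomyocytes, 6 in mural cells, 8 in fibroblasts and 6 in mesothelial cells. Cardiomyocytes had 79.2 and 115 CPM of Ptprb (log2 ratio 0.53, from 0.25 to 0.82) and 11.6 and 23.3 CPM of Jam3 (1.00, from 0.30 to 1.74), with 12.1% of genes higher there, and 0 members were lower (11.8%). Mural cells had 226 and 322 CPM of Esam (0.51, from 0.18 to 0.84), with 10.9% of genes higher, and 0 members were lower (12.2%). Fibroblasts had 10.7 and 16.1 CPM of Esam (0.58, from -0.12 to 1.31), with 8.38% of genes higher, and 0 members were lower (5.93%). Mesothelial cells had 35.4 and 23.1 CPM of Ptprb (-0.61, from -1.46 to 0.22) and 51.9 and 33.7 CPM of Pecam1 (-0.62, from -1.31 to 0.07), with 8.87% of genes lower, and 0 members were higher (8.42%). Both mesothelial intervals and that of Esam in fibroblasts contained 0. Ptprb also stood at 58.0 to 85.6 CPM in fibroblasts, MPs and mural cells. The part of EC transcripts in the members' levels outside ECs was not tested.

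Other junction and barrier genes were followed in 5 lists of 95 genes, of which 94 were in the files and 84 had at least 50 UMIs in ECs. Their median log2 ratio in ECs was -0.06, with 2 genes above 0.5 and 4 below -0.5, shares below the 8.61% and 6.62% of all genes. The lists and all genes were not matched for UMIs per gene, and the part of depth in these shares was not tested. Of 14 adherens junction genes (catenins, nectins and their partners), 0 passed the fold in either direction and the median was -0.09. Their extremes were Ctnnd1, encoding p120-catenin, which stabilizes VE-cadherin at the membrane (77.9 and 97.3 CPM, 0.32), and Vezt, encoding vezatin (96.7 and 72.5 CPM, -0.41). Of 15 tight junction genes, 2 were higher and 1 was lower, with a median of 0.09. The lower gene was Magi1, a junctional scaffold (478 and 320 CPM, log2 ratio -0.58, from -0.70 to -0.46). The higher genes were the polarity genes Patj (0.58, from -0.04 to 1.23, on 37 and 54 UMIs) and Prkci (0.58, from 0.12 to 1.05, on 68 and 99 UMIs), the latter outside the naming rule and named after its values were seen.

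Endothelial contact adhesion genes (12 tested) had 0 past the fold and a median of -0.02. Icam2, a leukocyte ligand at endothelial borders, had 314 and 434 CPM (0.47), and Mcam, encoding CD146, had 154 and 109 CPM (-0.50). Of 38 genes of permeability regulation, 0 were higher and 3 were lower, with a median of -0.07. The lower genes were Fli1, an ETS transcription factor of endothelium (676 and 425 CPM, -0.67, from -0.77 to -0.57), Vav3 (332 and 209 CPM, -0.66, from -0.81 to -0.52), and Rapgef1, an exchange factor for Rap1 (277 and 189 CPM, -0.55, from -0.71 to -0.39). The highest in that list was Ramp2, the adrenomedullin receptor subunit, with 398 and 527 CPM (0.40). Fli1, Vav3, Rapgef1 and the tight junction gene Magi1 all lie in the bin of longest genes, whose median was -0.17, as does Patj. The part of gene length in their ratios was not tested. With the EC clusters weighted alike in both libraries, 1 gene of all lists was below -0.5. Gap junction genes (5 tested) had 0 past the fold and a median of 0.01, from Gja1, encoding connexin 43 (133 and 104 CPM, -0.36), to Panx1 (0.35, on 37 and 46 UMIs).

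The genes most like each member were found by Pearson correlation of log2(CPM + 1) over 12 cell populations in both libraries, which gives 24 points that share libraries and depth, among 11464 genes. Cdh5 was nearest to Tie1 (r = 0.976), Myct1 (0.971) and Mmrn2 (0.963). Ptprb was nearest to Podxl (0.969), Nos3 (0.967) and Slc9a3r2 (0.966), and Pecam1 to Icam2 (0.970), Pkn3 (0.955) and S1pr1 (0.935). Ptprm was nearest to Cep85l (0.901), Plxna2 (0.896) and Fgd5 (0.886). Among the tight junction members, Cldn5 was nearest to Btnl9 (0.891), Dll4 (0.877) and Cyp4b1 (0.854), Ocln to 1700024B18Rik (0.904), Cytl1 (0.866) and Vwf (0.844), and Tjp1 to Nfib (0.928), Arhgef10 (0.926) and Phldb2 (0.907). Esam was nearest to Cd200 (0.898), Tmtc2 (0.887) and Vsig2 (0.862), Jam2 to Car8 (0.883), Flt1 (0.883) and Cltb (0.867), and Jam3 to Grb10 (0.845), Spry4 (0.844) and Nbeal1 (0.816). Of these genes, Tie1, Flt1 and Vwf were EC markers, and Btnl9, Dll4, Cytl1 and Vwf were EC cluster markers. They served to name the populations, so their correlations are partly built in and are descriptions only. Between members the correlation was highest for Cdh5 with Ptprb (0.931) and lowest for Jam3 with Pecam1 (-0.07).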

How the data were processed

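Nuclei of mouse hearts were profiled with the GEXSCOPE single nucleus kit in 1 control and 1 PD-1 inhibitor library. The authors deposited raw UMI counts, as whole numbers for each of 32589 genes in each nucleus. The submitters' processing notes name GRCm38 and mm10. The aligner, the counter, the strand setting and the use of intronic reads are not given in the sources used here, so overlapping genes could share reads.

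Nuclei needed 200 or more genes and no more than 20% mitochondrial UMIs, which removed 83 and 15 barcodes, and Scrublet removed 592 and 308 doublets. Counts were scaled to 10000 per nucleus, logged and scaled per gene (maximum 10). The 2000 most variable genes without the members gave 30 components, 15 neighbours and Leiden clusters at resolution 1, 21 in all. A cluster was named from markers (a UMI in at least 5% of nuclei and over 2 times the CPM of other nuclei, at least 3 markers), which named 10 cell types. Scaling and the leidenalg implementation were chosen after the clusters were seen, since only then could glial and valve-like nuclei be named.

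UMIs were summed per population and library. Log2 ratios had 0.5 UMI added. Exact Poisson, Clopper-Pearson and conditional binomial intervals are at 95% and cover counting error only, and folds against 0 UMIs use a floor of 3 counts in that library. Genes entered ratio counts with 50 or more UMIs summed over both libraries, and the thresholds were a log2 ratio of 0.5 between libraries and of 1 between EC clusters. Spans of 32445 genes came from GENCODE vM21. Promoter sequences came from RefSeq (GRCm38.p6). Named are all members, list genes with at least 200 UMIs past the fold, the highest and lowest gene of each list and the 3 genes most like each member. The members and lists were chosen with earlier results of these data known. Alternatives covered filters, clustering, normalization, thinning and the mix of clusters and depths. The steps were tested on simulated data. Tools were python 3.11.15, numpy 2.4.6, scipy 1.17.1, scanpy 1.11.5, anndata 0.12.19, scikit-learn 1.9.0, leidenalg 0.10.2 and matplotlib 3.10.9.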

Additional observations from a re-analysis of the deposited data

Results flagged for a closer look

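Ptprb had a log2 ratio of the PD-1 inhibitor over the control library of 0.53 in cardiomyocytes, with a counting interval above 0, and ratios with intervals below 0 in endocardial ECs (-0.44), valve-like ECs (-0.20), fibroblasts (-0.41) and T cells (-1.06). The T cell value rested on 26 and 10 UMIs. Cldn5 had 0.37 in lymphatic ECs and -1.22 in endocardial ECs, again with intervals on opposite sides of 0. None of these differences between populations was tested, since each population comes from the same 1 library per condition.

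A cluster of cycling nuclei that took no cell type name (32 nuclei in the control and 13 in the PD-1 inhibitor library) lay outside every comparison and held 172 and 75 UMIs of the members. Pecam1 had 40 and 11 of these UMIs and Ptprm 37 and 12.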

How the results depend on the processing

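Of 350 values recomputed under 14 alternatives, 319 kept their place, 31 moved and 0 reversed. A log2 ratio within the counting interval of the main setting was counted as kept. Changes of sign inside such an interval, as for Ocln and Jam3 with EC clusters weighted alike, were therefore not counted as reversed. The median log2 ratio of the members in ECs ranged from -0.07 to 0.04 and that of Ptprm from -0.63 to -0.45. Thinned to 500 UMIs, 1 member was above 0.5 (Ocln, 0.93), and the lists had 0 genes higher and 7 lower. With the same mix of EC clusters, 0 members and 1 list gene were lower. The same mix of depths left 1 list gene higher, and no minimum of UMIs gave 4 higher and 10 lower. The median share of member UMIs in ECs of the PD-1 inhibitor library was 81.6% with at most 5% mitochondrial UMIs, 74.8% with doublets kept, 81.1% as a mean over nuclei and 80.8% thinned. At Leiden resolution 2, 0 members were higher in endocardial ECs, 1 higher in arterial and 1 lower in arterial ECs, and with the members among the variable genes 0 were higher in endocardial ECs. With at most 5% mitochondrial UMIs, 1 was higher in arterial ECs, and 1 was higher and 1 lower in valve-like ECs. As a mean over nuclei, 1 was lower in arterial ECs. In valve-like ECs, 1 was higher and 0 lower with doublets kept, 1 higher and 1 lower at resolution 0.5, 1 higher with mitochondrial and ribosomal protein genes left out of the total, and 1 lower when thinned. The cause was not tested. Arterial ECs could not be named at resolution 0.5, nor valve-like ECs without scaling before clustering. The alternative without scaling was chosen after seeing the data and moved no value. At resolution 2 the arterial name also covered a cluster of 230 and 87 nuclei with 3 of 13 arterial markers. A cluster of 280 and 362 nuclei there, nearest to endocardial ECs by markers, took no EC cluster name.

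No paired analysis was possible because each condition has 1 library. With 1 library no leave-one-out fit was made, and library, hearts and treatment cannot be told apart. Depth limits Ocln, Jam3 and Cldn5, with fewer than 450 UMIs each in ECs of a library, and most members in arterial, lymphatic and valve-like ECs.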
